A study of Mus musculus with 8 samples.

Results

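The 7 genes described here, Grhl1, Grhl2, Grhl3, Ovol1, Zfp750, Tgm1 and Cdsn, drive or carry out the terminal differentiation of keratinocytes, and the accessible chromatin around them was examined in medullary thymic epithelial cells (mTECs). An accessible region was counted for a gene when it overlapped the gene body or the 20 kb on either side of it in the GENCODE M21 annotation of the mm10 genome. This gave 44 regions of the 57124 in the whole set, and 0 of them were shared between the genes. The assay was ATAC-seq, which marks open DNA by letting a transposase, Tn5, cut it and attach adapters. The cells came from the thymus of wild-type (wt) mice, which per the methods of the study were BL6N6 animals some weeks of age. The 8 samples formed 4 groups of 2 biological replicates, Tspan8neg MHCIIlow, Tspan8pos MHCIIlow, Tspan8neg MHCIIhigh and Tspan8pos MHCIIhigh. Tspan8, a tetraspanin, is a self-antigen that a subset of mTECs displays, and MHC class II rises as mTECs mature. Per the study it falls again in late mTECs, so MHCIIlow cells include both immature and late mTECs. The regions were merged over all of the samples, so every value below belongs to the pooled set and to no single group. A region absent from the set may still be open in few cells, and rare open cells cannot be told apart from weak opening in many cells. Read depth and read counts per sample were not analysed here, so the values have no replicate error and no test.

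In stratified epithelia, cells leave the basal layer, stop dividing and end as flattened, cross-linked squames that form a barrier. Grainyhead-like factors, OVOL zinc fingers and ZNF750 are transcription factors of this programme, and transglutaminases and corneodesmosomal proteins are among its products. Some mTECs take a path like that of keratinocytes late in their life, and the cornified Hassall's corpuscles of the thymic medulla are its known end point. The mTEC label was set against markers in the same region set. All 8 epithelial or mTEC markers looked up (Epcam, Krt5, Krt14, Krt8, Aire, Foxn1, H2-Ab1 and Cd80) had a region at a promoter. Of 5 haematopoietic markers (Ptprc, Cd3e, Cd4, Cd8a and Lck), 0 had one. Over all protein-coding genes the share was 48.6%. H2-Ab1 and Cd80 mark mature mTECs rather than epithelium. Dendritic cells and B cells of the thymus also present on MHC class II, so H2-Ab1 does not set mTECs apart from them. These markers were chosen after the region set had been seen.

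The transcription start was covered by an accessible region at 5 of the 7 genes, all 3 Grhl genes, Ovol1 and Tgm1. For Grhl1, Grhl3 and Tgm1, the stretch upstream of the start, within the region and without any untranslated bases, is printed below because it is the open sequence directly before that start. At Tgm1 the stretch lies before a start of the basic transcript set but inside the gene body, which extends further upstream. It is given 5′ to 3′ on the strand of the gene in mm10 (at most 300 bases), and capitals mark matches to the motifs described further on.
Grhl1, chr12:24571983-24572282, plus strand: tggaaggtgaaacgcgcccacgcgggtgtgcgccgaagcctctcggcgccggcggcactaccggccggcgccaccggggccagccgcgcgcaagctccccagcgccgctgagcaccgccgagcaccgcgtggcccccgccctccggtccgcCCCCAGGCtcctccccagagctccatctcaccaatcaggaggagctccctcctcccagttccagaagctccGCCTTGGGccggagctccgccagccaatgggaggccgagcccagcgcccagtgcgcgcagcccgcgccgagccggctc
Grhl3, chr4:135573631-135573747, minus strand: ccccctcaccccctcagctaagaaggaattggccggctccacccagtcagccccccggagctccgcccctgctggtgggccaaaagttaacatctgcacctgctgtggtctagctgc
Tgm1, chr14:55713495-55713717, minus strand: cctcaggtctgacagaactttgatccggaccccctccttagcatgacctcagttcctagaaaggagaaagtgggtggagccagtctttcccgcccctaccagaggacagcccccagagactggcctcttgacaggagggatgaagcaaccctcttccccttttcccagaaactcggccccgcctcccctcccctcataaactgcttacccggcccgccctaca

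AP-1, the motif of the Fos and Jun factors, had a match in 12 of the 44 regions, compared with 21.3% of all regions. One region from the middle of Grhl2 is shown with the region before Grhl3 that held 2 such matches and the far region of Zfp750, and capitals again mark motif matches.
Grhl2, chr15:37312989-37313274, plus strand: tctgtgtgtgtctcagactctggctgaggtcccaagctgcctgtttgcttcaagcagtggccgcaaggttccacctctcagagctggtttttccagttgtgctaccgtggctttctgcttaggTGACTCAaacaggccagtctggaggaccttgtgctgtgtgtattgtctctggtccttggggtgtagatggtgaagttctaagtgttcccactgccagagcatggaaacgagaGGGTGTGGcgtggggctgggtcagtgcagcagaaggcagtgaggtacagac
Grhl3, chr4:135575371-135575670, minus strand: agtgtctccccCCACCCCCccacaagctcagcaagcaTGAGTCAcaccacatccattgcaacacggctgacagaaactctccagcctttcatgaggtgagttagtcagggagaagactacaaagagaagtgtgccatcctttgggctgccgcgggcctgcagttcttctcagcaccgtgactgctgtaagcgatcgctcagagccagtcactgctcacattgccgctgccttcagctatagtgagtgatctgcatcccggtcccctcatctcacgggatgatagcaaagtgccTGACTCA
Zfp750, chr11:121502163-121502263, minus strand: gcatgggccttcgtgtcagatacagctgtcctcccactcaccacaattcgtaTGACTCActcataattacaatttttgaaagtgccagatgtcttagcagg

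To address whether the genes had accessible promoters, a region was called a promoter region when its centre fell between 1000 bases before and 100 bases after a start of the gene. By this definition 4 of the 7 genes (57.1%) had a promoter region, Grhl1, Grhl2, Ovol1 and Tgm1, compared with 48.6% of the 21938 protein-coding genes. A start was covered by a region at 5 of 7, compared with 56.4% of protein-coding genes. At least 1 region lay in the window of all 7, compared with 81.5%. The shares with a promoter region or a covered start were thus near those of all coding genes. Grhl3 separated the 2 definitions, since its region covered the start but had its centre 189 bases downstream, outside the limit of 100. Among the genes called, the centre farthest from its start was that of Ovol1, 217 bases upstream. Zfp750 and Cdsn had no region at the start by either definition.

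**Figure D1:**
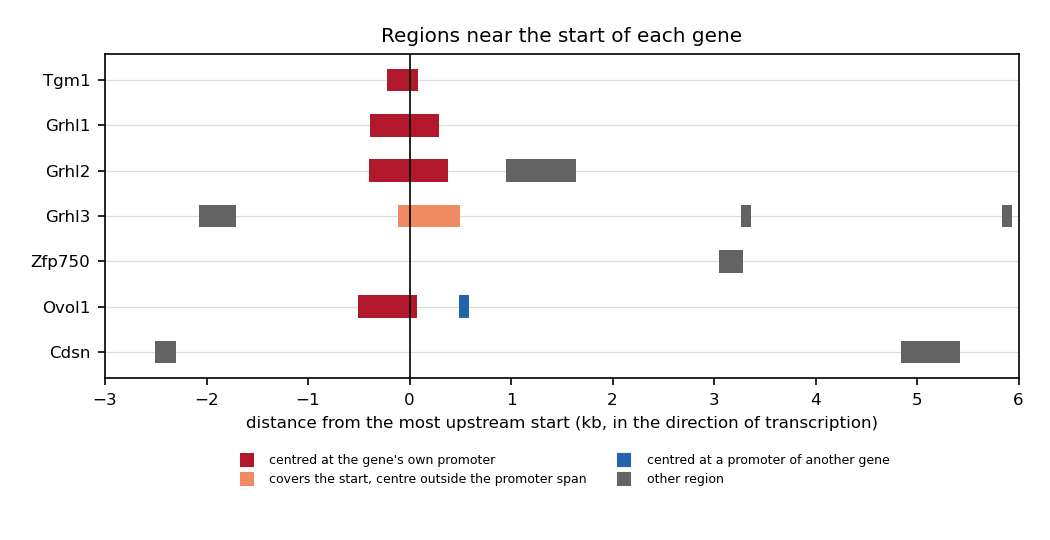
Accessible regions from 3 kb upstream to 6 kb downstream of the most upstream basic GENCODE start of each gene. The x axis is the distance from that start in kb in the direction of transcription, each bar is 1 region drawn to scale, and colours give its class. Bars cross the start line at Tgm1, Grhl1, Grhl2, Grhl3 and Ovol1, and Zfp750 and Cdsn have none there.

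Grhl1 encodes a grainyhead-like factor known for its role in desmosomal adhesion and the hair coat. The gene (ENSMUSG00000020656, chr12:24572283-24617391, plus strand) had 6 regions in its window. The promoter region, chr12:24571895-24572572, was 678 bases wide and its centre lay 50 bases upstream of the first start. It was the richest in GC of the 44 regions, at 73.0%, with an observed-to-expected CpG ratio of 0.912. The second annotated start, at base 24580749, had no region. Inside the gene, 3 intronic regions lay 11795, 12633 and 20337 bases past that second start and were 83, 668 and 337 bases wide. The region of 668 bases, chr12:24593049-24593716, was nearly as wide as the promoter region. Beyond the gene body, 1 region of 382 bases lay 6668 bases upstream of the first start. The last, of 122 bases, lay past the end of the gene and nearer to the start of the coding gene Klf11.

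Grhl2 encodes the family member that maintains epithelial junctions, including through E-cadherin. With 15 regions it held 34.1% of those of the 7 genes, in the longest gene of the set (ENSMUSG00000022286, chr15:37233036-37363569, plus strand). Its promoter region was the widest own promoter region, at 784 bases, with its centre 12 bases upstream of the start. A second wide region of 689 bases, chr15:37233984-37234672, lay in the first part of the gene with its centre 1292 bases past the start and had a GC content of 71.7%. Then 32198 bases without a region followed. The other 12 regions within the gene lay between 33870 and 95823 bases past the start, and the last 34657 bases of the gene had none. These 12 were narrow, from 72 to 385 bases, and 11 had their centre in an intron and 1 in an exon (chr15:37328254-37328385). With the region of 86 bases found 11144 bases upstream, the 13 regions more than 2 kb from the start had a median width of 154 bases and a median GC content of 47.0%. No start of another protein-coding gene lay within the window, and the non-coding genes with a start inside the window had no promoter region by this definition. The start of one of them, the antisense gene Gm16136, lay 123 bases from that of Grhl2 and under the Grhl2 promoter region.

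Grhl3 encodes the member most closely tied to barrier formation, and Tgm1 is among its known targets. It had 5 regions (ENSMUSG00000037188, chr4:135541888-135573630, minus strand). The region over the start, chr4:135573135-135573747, was 613 bases wide and overlapped the first exon with its untranslated part. An upstream region of 359 bases, chr4:135575342-135575700, had its centre 1891 bases before the start. The 3 remaining regions were intronic and narrow, 101, 105 and 185 bases, at 5889, 3315 and 28389 bases past the start. Unlike Grhl2, Grhl3 had no cluster of regions deep in the gene, but its body of 31.7 kb was also shorter than the 131 kb of Grhl2.

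Ovol1 encodes a zinc-finger repressor that restrains the proliferation of epidermal progenitors. The gene (ENSMUSG00000024922, chr19:5549136-5560646, minus strand) had 6 regions, 2 of them at promoters of other genes. Its own promoter region was 577 bases wide with a GC content of 67.2%. A region of 101 bases, chr19:5560056-5560156, lay 540 bases past the start within the gene and 154 bases from the start of AC126029.1, an antisense gene, so it counts as a promoter region of that gene. The widest of all 44 regions, chr19:5567391-5568433, was 1043 bases wide and lay 113 bases from the start of Ap5b1, which encodes an adaptor complex subunit. An intronic region of 190 bases lay 6275 bases past the start. The others, of 170 and 553 bases, lay past the end of the gene, and the region of 553 bases was nearer to the start of Snx32 than to that of Ovol1.

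Zfp750, the mouse form of ZNF750, encodes a zinc finger that acts below p63 in terminal differentiation. It had the fewest regions, 2 (ENSMUSG00000039238, chr11:121510978-121519333, minus strand). An intronic region of 236 bases, chr11:121516050-121516285, had its centre 3166 bases past the start. The second, chr11:121502163-121502263, was 101 bases wide and lay 17120 bases from the start, beyond the end of the gene. The gene lies within Tbcd, a tubulin-folding cofactor gene on the opposite strand that spans chr11:121451949-121617164, and both regions lay in that gene too. The start of Tbcd was 64218 bases from the first and 50264 bases from the second.

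Tgm1 encodes the membrane-bound transglutaminase that cross-links the cornified envelope. It had 6 regions (ENSMUSG00000022218, chr14:55700009-55713926, minus strand). The promoter region, chr14:55713410-55713717, was 308 bases wide, the narrowest own promoter region of the 4, with its centre 69 bases upstream of a start. Only 1 other region, of 134 bases, lay within the gene, in an intron 10216 bases past the start. The remaining 4 were nearer to the starts of the coding neighbours Tinf2 and Rabggta. The region chr14:55681402-55682118, of 717 bases, lay 15 bases from the start of Tinf2, a telomere-protection gene, and was also at the promoter of the antisense gene Gm49067. That of 564 bases lay 101 bases from the start of Rabggta, a subunit of an enzyme that prenylates Rab proteins. The other 2, of 103 and 280 bases, lay at neither start.

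Cdsn encodes corneodesmosin, which holds squames together. It had 4 regions (ENSMUSG00000039518, chr17:35552128-35557180, plus strand), and the start had none. The nearest was a region of 204 bases, chr17:35549621-35549824, with its centre 2406 bases upstream. The widest, of 580 bases, chr17:35556970-35557549, lay over the end of the last exon with its centre just past the gene. A region of 164 bases, chr17:35543334-35543497, lay 8713 bases upstream of the GENCODE start but 315 bases downstream of a second start that RefSeq gives for Cdsn, at base 35543100. The 300-base RefSeq promoter at that start had 0 bases in a region. The last, of 108 bases, lay in an exon of Psors1c2, 1337 bases from the start of that gene.

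**Figure D2:**
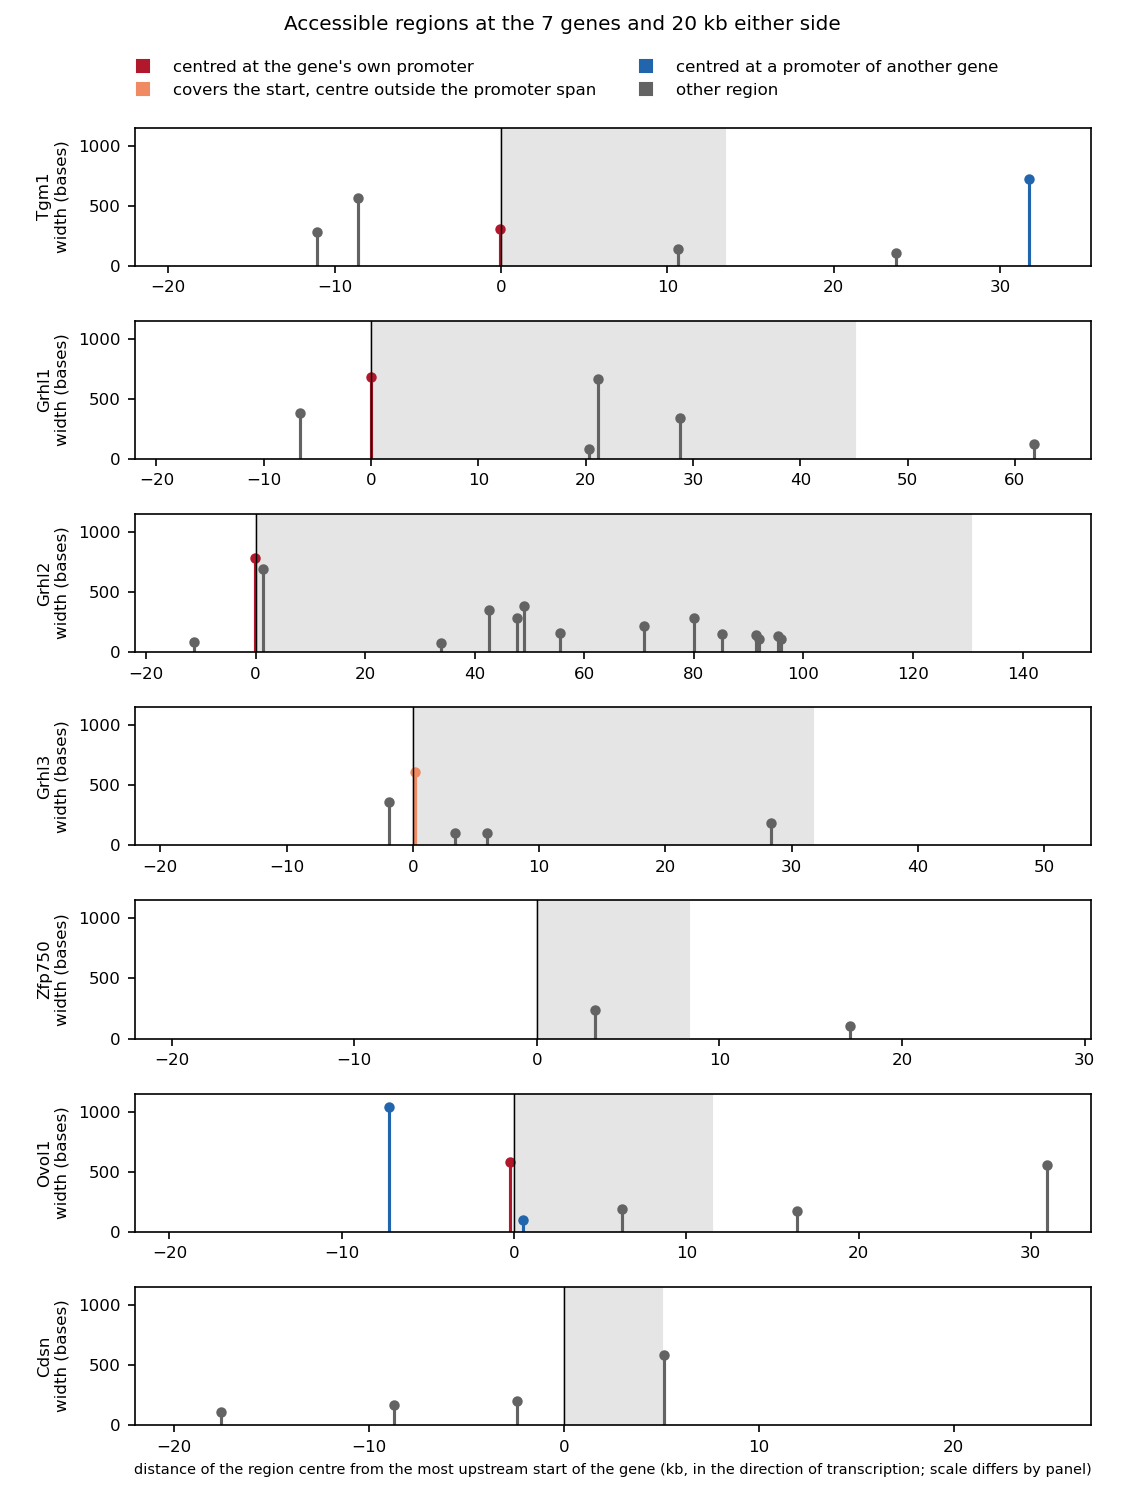
Accessible regions in the window of each gene. The x axis is the distance of the region centre from the most upstream basic start in kb in the direction of transcription, on a scale that differs by panel, the y axis is region width in bases, and grey shading marks the gene from that start to its end. Grhl2 has 15 regions, 12 of them in a stretch deep within the gene, and Zfp750 has 2.

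To set the number of regions against the size of the windows, regions were counted per 100 kb. The density was 11.6 at Ovol1, 11.1 at Tgm1, 8.88 at Cdsn, 8.80 at Grhl2, 7.05 at Grhl1, 6.97 at Grhl3 and 4.14 at Zfp750. Over all protein-coding genes the median was 3.86 (quartiles 1.5 and 6.88). All 7 genes thus lay above the median, as 50% of coding genes do, and 6 of the 7 lay above the upper quartile. A density as high as that of Ovol1 was found at 6.58% of coding genes, and one as high as that of Tgm1 at 7.84%. The order changed by count, since the 15 regions of Grhl2 were matched by 1.30% of coding genes, whereas the 6 of Ovol1, Tgm1 or Grhl1 were matched by 19.0%. Zfp750 was ordinary on both scales, with as many regions at 69.3% and as high a density at 47.3% of coding genes. Neighbouring genes added to the densities. Of the 44 regions, 8 were nearer to the start of another coding gene, 4 of the 6 at Tgm1, 2 of the 6 at Ovol1, 1 at Grhl1, 1 at Cdsn and 0 at the others. Without these, Grhl2 kept its 15 regions, and Grhl1 had 5, Ovol1 4, Cdsn 3 and Tgm1 2. The densities above include such regions, for the 7 genes and for all coding genes alike. The place of each gene against the median and quartiles was not worked out without them.

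**Figure D3:**
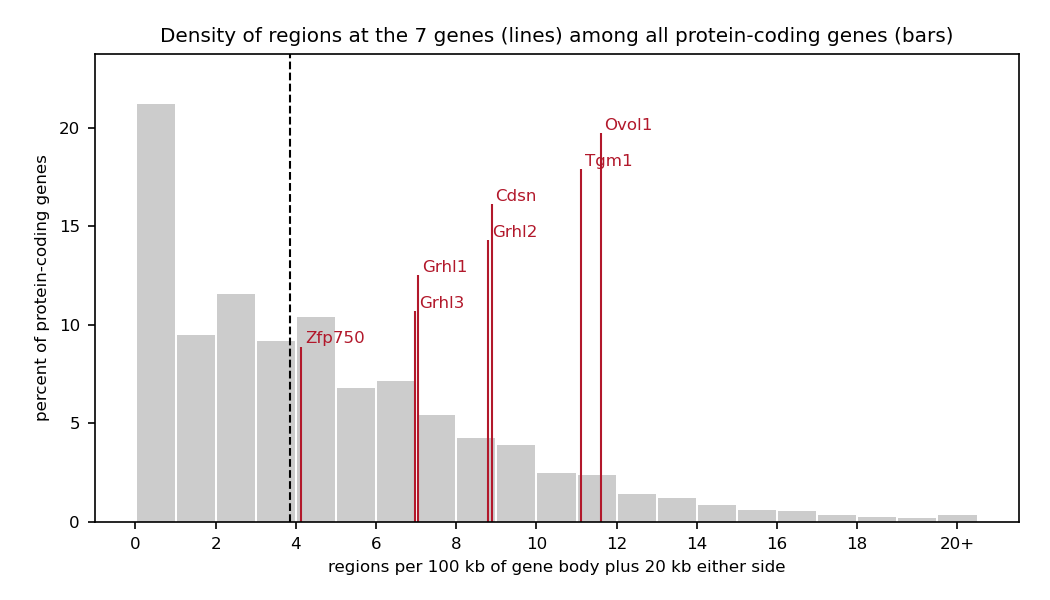
Regions per 100 kb of gene body plus 20 kb either side (x axis) over all protein-coding genes, as the percent of genes per bin (grey bars, the last bin holding all values from 20), with the 7 genes as red lines whose height carries no value. The dashed line is the median of 3.86, and all 7 lines lie to its right, with Zfp750 the nearest.

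The widths of the 44 regions ran from 72 to 1043 bases with a median of 210.5 (quartiles 119.5 and 427), compared with a median of 212 (quartiles 118 and 410) over all regions. Regions under 200 bases made up 47.7%, compared with 47.4% of all. The own promoter regions of Grhl1, Grhl2, Ovol1 and Tgm1 had a median of 627.5 bases. Among coding genes with a promoter region, the widest one had a median of 555 bases, and it was as wide as that of Grhl2 in 22.9%, of Grhl1 in 33.9%, of Ovol1 in 46.8% and of Tgm1 in 82.6%. Of the 25 intronic regions the median was 170 bases, compared with 169 for all intronic regions. The 7 promoter regions, those of other genes included, had a median of 678 bases compared with 482, the 8 intergenic ones 242 compared with 168 and the 4 in exons 348 compared with 311. The medians over all regions and over introns were thus within a few bases of the whole set, and those of the smaller classes were higher. By place, 56.8% of the 44 regions lay in introns compared with 40.2% of all, 15.9% at promoters compared with 21.9%, 9.09% in exons compared with 8.36% and 18.2% between genes compared with 29.6%. The windows were drawn around genes, and the shares were not adjusted for this. Grhl2, with 15 of the 44 regions, held more of the intronic ones than any other of the 7 genes. Some intronic regions, past the ends of Tgm1, Zfp750 and Ovol1, lay in introns of other genes. The median GC content was 54.2%, compared with 53.9% of all regions, and soft-masked repeats took a median of 6.41% of a region, compared with 0%.

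**Figure D4:**
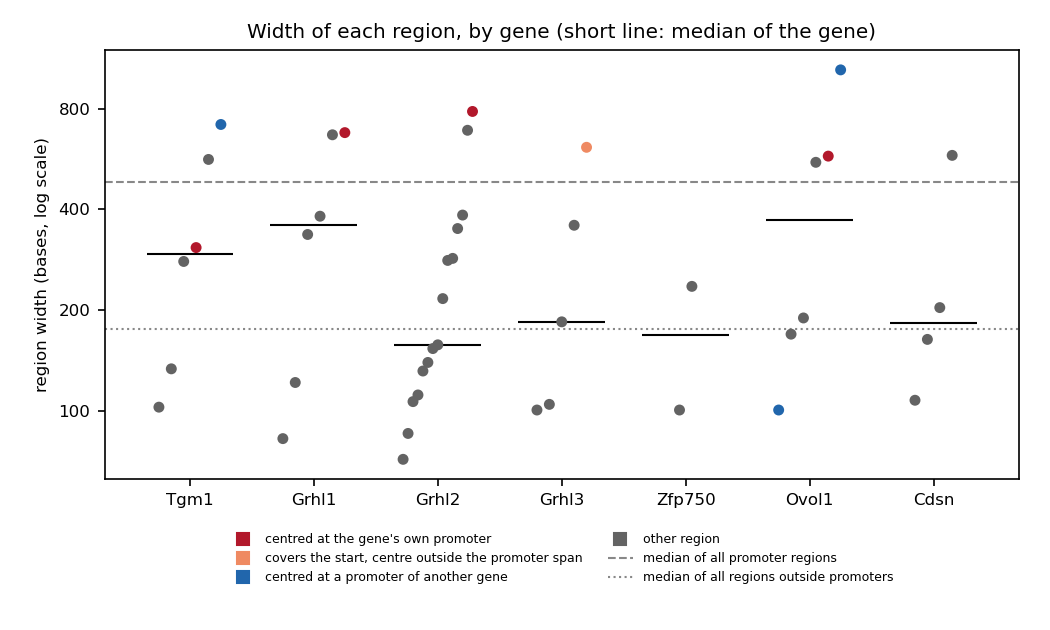
Width in bases (log scale) of each of the 44 regions by gene, 1 point per region and a short line for the median of the gene. The dashed and dotted lines are the medians of all promoter regions, 482 bases, and of all regions outside promoters, 176 bases. Own promoter regions of Grhl1, Grhl2 and Ovol1 lie above the dashed line and that of Tgm1 below it.

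To ask which binding motifs the regions held, 7 short motifs were searched on both strands. They were GRHL (AACNGGTT), AP-1 (TGANTCA), OVOL (CCGTTA), ZNF750 (CCNNAGGC), KLF (GGGNGTGG), ETS (CCGGAAG) and the p53 family (CATG, 6 bases of any kind, CATG), where N is any base. A match is a run of letters and not a site shown to be bound, and long regions hold more matches by length alone. The 12 regions with an AP-1 match made up 27.3% of the 44, compared with 21.3% of all regions. In the 300 bases around each region centre, which are of equal length, the direction turned, with a match in 9 of 44 (20.5%) compared with 22.4% of all. These windows ran past the ends of regions shorter than 300 bases. At the region of 86 bases upstream of Grhl2, the match in the window lay outside the region. The 12 were spread over all 7 windows, with 5 at Grhl2 (4 in introns and 1 in an exon), 2 at Tgm1 and 1 at each other gene. Both at Tgm1 lay in regions nearer to Tinf2 or Rabggta, and that at Ovol1 lay in the promoter region of Ap5b1. In the region before Grhl3 printed above, AP-1 matches lay 1744 and 2000 bases before the start. Outside promoters AP-1 was found in 10 of 37 regions, compared with 24.3% of all such regions.

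GRHL, the motif of the grainyhead-like factors themselves, had a match in 1 of the 44 regions, compared with 2.64% of all regions. That region was the promoter region of Ovol1. The full spelling AACCGGTT was found in 1 of the 44 and in 0.24% of all regions. OVOL had a match in 2 of the 44 regions, compared with 2.66% of all, the promoter regions of Ovol1 and Ap5b1. In the central windows of equal length it had a match in 3 of 44 (6.82%), compared with 2.24% of all. The added OVOL match lay outside its region, the intronic region of 105 bases in Grhl3. The promoter regions of Grhl1, Grhl2 and Tgm1 and the start region of Grhl3 held no GRHL match.

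ZNF750 had a match in 11 regions, compared with 25.5% of all. By class, it was found in 5 of the 7 promoter regions, compared with 47.6% of all promoter regions. Outside promoters it was found in 6 of 37, compared with 19.4%. Among the 11 was the promoter region of Grhl1 with 3 matches, 75, 146 and 332 bases before the start. KLF had a match in 9, compared with 16.5%. ETS had a match in 3, compared with 7.09%, and these were the regions at the starts of Tinf2, Rabggta and Ap5b1. The motif of the p53 family, to which p63 belongs, had a match in 0 regions, compared with 0.728%. In 21 of the 44 regions none of the 7 motifs was found, compared with 46.8% of all regions. The promoter region of Tgm1 and the intronic region of Zfp750 were among these.

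Other genes of the same programme were looked up in lists. Of 20 further regulators of epidermal differentiation, 19 (95%) had a promoter region, compared with 48.6% of coding genes and with 4 of 7 here. The exception was Dlx3, a homeobox factor, whose nearest region centre lay 2954 bases from its start. The widest promoter regions in this list were those of Maf at 1175 bases, Tfap2a at 1100 and Klf5 at 1042, all wider than the own promoter regions of the 7 genes, of which the widest had 784. The related factor Ovol2 had a promoter region of 183 bases, compared with 577 at Ovol1. Windows of this list held 2 to 13 regions with a median density of 6.38 per 100 kb, compared with 8.80 for the 7 genes. A list of 18 cornification genes held mainly genes for structural proteins and enzymes of the cornified layer, but also the broadly expressed Tgm2. Of the 18, 9 (50%) had a promoter region, Tgm2 among them. The 9 without were Tgm3, Tgm5, Lor, Flg, Krt1, Klk5, Klk7, Cst6 and Alox12b, and the windows of Flg and Klk5 held no region. The widest in this list were those of Sprr1a at 804 bases, Evpl at 541 and Dsp at 539. Among transglutaminases, Tgm2, the broadly expressed member, had a promoter region of 212 bases and Tgm1 one of 308, and Tgm3 and Tgm5 had none. The median density of the cornification list was 4.60 per 100 kb. The differences between the lists are descriptions, since members and lists were chosen with earlier results known.

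The RefSeq promoters, from 250 bases before to 50 bases after each start (GRCm38.p6), gave a second view of 4 of the 7 genes. Of their 7 promoters 3 overlapped a region, compared with 41.7% of all RefSeq promoters. At Grhl1 the first promoter lay in a region over 300 of its 300 bases and the second over 0. At Tgm1 the values were 275 and 0 bases for the 2 starts, and at Grhl3 165 bases. Both Cdsn promoters had 0 bases in a region. Around the 7 genes, 16 other genes had a start within the windows, 5 of them protein-coding. Of the 16, Tinf2, Gm49067, AC126029.1 and Ap5b1 had a promoter region, in 3 regions in all.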

How the data were processed

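ATAC-seq was measured in 8 samples of sorted mTECs in 4 groups of 2. The authors aligned reads to mm10 with Bowtie2, removed mitochondrial, multimapping, low-quality and duplicate reads, called broad peaks with MACS2, merged them with bedtools and counted reads with featureCounts 2.0.3. The sources used here do not give whether peak calling was done on single or pooled samples. From the deposited table, the start, end and width of each consensus region in bases were used. Width depends on peak calling and merging, and loss of multimapping reads removes regions in repeated sequence. The names of the 8 count columns match no label, so these columns were not used, and depth and group comparisons were not analysed here. Some sequences and a marker gene are not reported here.

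Regions were assigned by overlap with gene bodies plus 20 kb (GENCODE M21) and classed by their centre against the starts of the basic transcript set, in the order promoter, exon, intron and intergenic. Sequence came from GRCm38 (mm10), and RefSeq promoters were matched by symbol. The assignment of promoter regions by their centre and the motif searches were tested on simulated data, and the gene windows and other distances were not. All 7 genes are named, together with neighbours in the windows that had a promoter region and, from the lists, genes without a promoter region and the 3 widest. Further neighbours (Rabggta, Klf11, Snx32, Psors1c2, Tbcd), the relatives Ovol2 and Tgm2 and the mTEC and haematopoietic markers were added after their values were seen. The members and lists were chosen with earlier results of these data known. Alternatives covered the flank, the promoter definition, the transcript set, region width and the motif spelling. Python 3.11.15, numpy 2.4.6, pandas 2.3.3 and matplotlib 3.10.9 were used.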

Additional observations from a re-analysis of the deposited data

How the results depend on the processing

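The number of regions around the 7 genes depended on the window and on width. It was 44 with 20 kb on either side, 78 with 50 kb, 29 over the gene bodies alone and 23 when regions had to be at least 200 bases wide. Promoter regions numbered 4, and 8 when a centre within 2000 bases of a start sufficed, in which case they belonged to 5 genes. The other 20 of 24 alternatives moved a value by at most 1.5 times, the most being 6 promoter regions with all transcripts, in 4 genes. The median width of 210.5 bases became 185 for regions outside promoters. It became 236 for regions nearer to a start of their own gene than to one of any other annotated gene, coding or not. Each value was a count or a width without direction, so a reversal was not possible. The comparisons with all genes or all regions were not among these alternatives. Grhl3 gained a promoter region when overlap with the start was enough, and the count of genes was then 5. The listed regulators stayed at 19 of 20, and the cornification genes ranged from 8 to 10 of 18. The region holding GRHL numbered 1 in the whole regions, in the central 300 bases and by the full spelling. No paired analysis was possible because no column of counts could be tied to a replicate. The planned comparisons between groups, with their other tools, filter, block and left-out replicates, were therefore not run. Regions of the pooled set show neither their depth nor the group they came from.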
